A study of Mus musculus with 12 samples.

Results

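The genes described here are 39 genes of the contractile apparatus and the actin cytoskeleton. They were chosen by name: 13 smooth muscle contractile genes, 2 transcriptional regulators of those genes, 4 tropomyosins, 7 widely expressed counterparts of muscle proteins, and 13 genes of stress fibres and focal adhesions. All 39 were among the 24411 gene symbols of the count table, and 38 of them were among the 12146 genes with enough counts to be tested. The exception was Myocd, which encodes the SRF cofactor myocardin and reached at most 11 counts in any library.

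RNA was sequenced from primary colonic myofibroblasts (CMFs), contractile fibroblast-like cells grown from the distal colon of mice on the C57BL/6 background that were 16 weeks old. The 6 knockout libraries came from TNFR1-/- cells, which lack both copies of the gene for tumor necrosis factor receptor 1 (Tnfrsf1a), and the 6 control libraries came from TNFR1+/- cells, so the controls also carry 1 null allele. No library was treated. All cells were at passage 6 to 8, had been expanded with serum, an insulin, transferrin and selenium supplement and epidermal growth factor, and were harvested from Matrigel on day 5. The labels do not say how many mice or separate cultures stand behind the 6 libraries of a genotype, so each p-value measures only the spread between these libraries, which may be technical.

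Smooth muscle cells and myofibroblasts pull on their surroundings through bundles of actin filaments and myosin II that end in focal adhesions, the plaques that tie the cytoskeleton to the extracellular matrix. Many genes of this machinery are controlled by serum response factor (SRF), which binds a DNA element called the CArG box. SRF acts with myocardin or with the myocardin-related factors MRTF-A and MRTF-B, which are held back by free actin monomers and released to the nucleus when actin polymerises. In the colon, Acta2 is commonly used to mark myofibroblasts and smooth muscle, and desmin to mark smooth muscle.

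The libraries fell into 4 sets of near-identical profiles, and this touches each result. Spearman's rank correlation was taken over genes with at least 120 counts summed over the libraries. It was 0.989 to 0.998 within knockout 1 to 4, within knockout 5 and 6, and within control 1 to 5. Between sets of 1 genotype it was 0.927 to 0.955. Control 6 had a rank correlation of 0.953 to 0.955 with the other controls and of 0.969 to 0.976 with knockout 1 to 4. Total counts were 6543006 to 9936996 in the knockout libraries and 11890737 to 16458674 in the controls. Tnfrsf1a was at 40.6 to 46.1 CPM (counts scaled to library size) in the knockout libraries and at 54.9 to 81.3 CPM in the controls. It was lower in the knockout by 0.76 on the log2 scale (log2 difference -0.76, SE 0.10, adjusted p = 9.24e-05), with no overlap between the genotypes, so its transcript was still counted in all knockout libraries.

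The contractile and cytoskeletal genes took a larger share of the transcriptome in the knockout libraries. Together the 39 genes made up 4.46 to 4.52% of all counts in knockout 1 to 4, 3.39% in knockout 5 and 3.32% in knockout 6. They made up 1.82 to 1.91% in control 1 to 5 and 3.42% in control 6. The mean share was 4.11% ± 0.587 in the knockout and 2.12% ± 0.638 in the control (SD, n = 6 each). Control 6 lay above both knockout 5 and knockout 6 by a small margin.

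Of the 38 tested genes, 32 were higher in the knockout and 0 were lower at an adjusted p under 0.05, in edgeR's quasi-likelihood test with Benjamini-Hochberg adjustment over all 12146 genes. Of all tested genes, 43% were called by the same rule, 21.4% higher and 21.6% lower. The 6 genes that did not pass were Synpo2, Des, Tagln2, Myh9, Zyx and Tln1. The median log2 difference of the 38 genes was 1.03 (range 0.35 to 2.27), against 0.02 for all tested genes. In 15 of the 38, all 6 knockout libraries lay above all 6 controls, which held for 10.6% of all tested genes, and in 0 of the 38 did all 6 lie below, which held for 12.5%. When the counts of each of the 4 sets were summed and the 4 sums were tested as 2 against 2 in edgeR, 0 of 13132 genes passed in either direction. In that fit 7.97% of genes had an unadjusted p under 0.05, among them 4 of the 39 genes, all higher (Csrp2, Fhl1, Myocd and Pdlim5), and the smallest adjusted p among the 39 was 0.613.

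**Figure D1:**
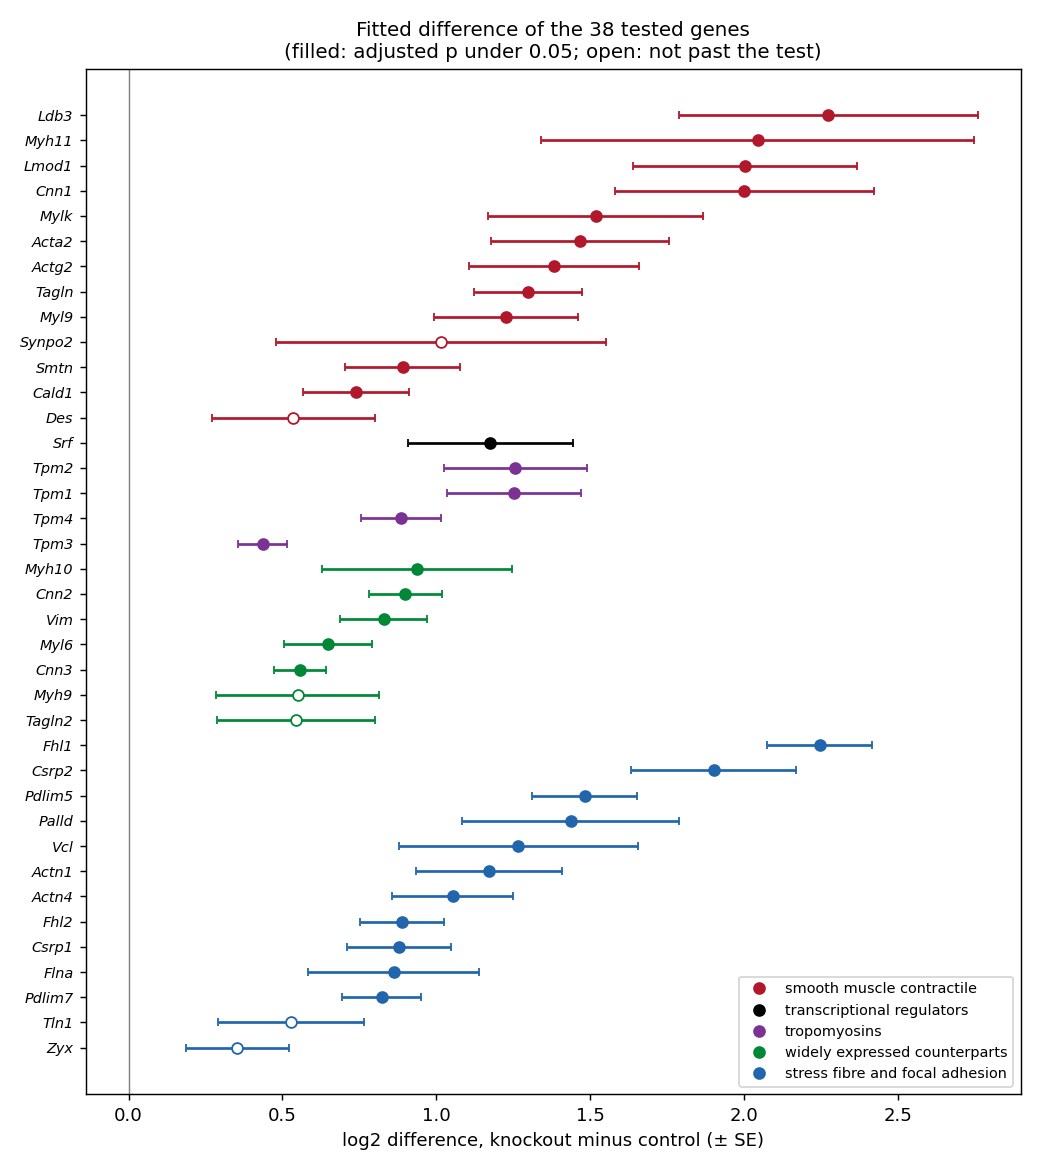
Fitted log2 difference (knockout minus control, x axis) of each of the 38 tested genes (y axis), with its SE, grouped by role; filled points passed an adjusted p of 0.05 and open points did not. All 38 points lie above 0, between 0.35 and 2.27, and the 6 open points are Synpo2, Des, Tagln2, Myh9, Zyx and Tln1.

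The sets were ordered differently from gene to gene, except that control 1 to 5 were mostly low. Knockout 1 to 4 all lay above control 1 to 5 in 37 genes, the exception being Tagln2. Knockout 5 and 6 both lay above control 1 to 5 in 36 genes, the exceptions being Myh11 and Synpo2. Both knockout 5 and knockout 6 lay below all of knockout 1 to 4 in 26 genes and above all of them in 7 (Srf, Tpm3, Tagln2, Csrp2, Pdlim7, Fhl1 and Fhl2). Control 6 was the highest of the 6 controls in 36 genes, the lowest for Tagln2, and inside the range of the other controls for Csrp2. It lay above both knockout 5 and knockout 6 in 21 genes, and above all of knockout 1 to 4 in 3. Such orders were not counted over all tested genes, so these counts have no background beside them. For the counts against control 1 to 5 an upper bound is known, because a set wholly above another also has a summed difference above 0. The difference from control 1 to 5 was above 0 in 48.9% of all tested genes for knockout 1 to 4. For knockout 5 and 6 it was above 0 in 49.2%.

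Set by set, knockout 1 to 4 exceeded control 1 to 5 by a median log2 difference of 1.39 over the 38 genes, and exceeded control 6 by 0.42. Knockout 5 and 6 exceeded control 1 to 5 by a median of 0.95, while their median difference from control 6 was -0.08. These are differences of log2(CPM + 0.5) between summed sets, with no replicate check. In the same order, the medians over all tested genes were -0.01, 0.01, -0.02 and -0.01. The difference was above 0 in 37, 34, 36 and 17 of the 38 genes, beside 48.9%, 50.6%, 49.2% and 49.7% of all tested genes. In 16 genes it was above 0 in all 4 contrasts, beside 21.3% of all tested genes: Tagln, Lmod1, Smtn, Srf, Tpm1, Tpm3, Tpm4, Cnn2, Cnn3, Vim, Actn4, Csrp2, Pdlim5, Pdlim7, Fhl1 and Fhl2. In 0 of the 38 was it below 0 in all 4, beside 22.4% of all tested genes. Control 6 exceeded control 1 to 5 by a median of 1.05, with 20 of 38 genes over 2-fold higher, beside 6.20% of all tested genes. Knockout 5 and 6 differed from knockout 1 to 4 by a median of -0.48, with 10 of 38 genes over 2-fold lower and 3 over 2-fold higher, beside 11.5% and 6.83% of all tested genes.

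**Figure D2:**
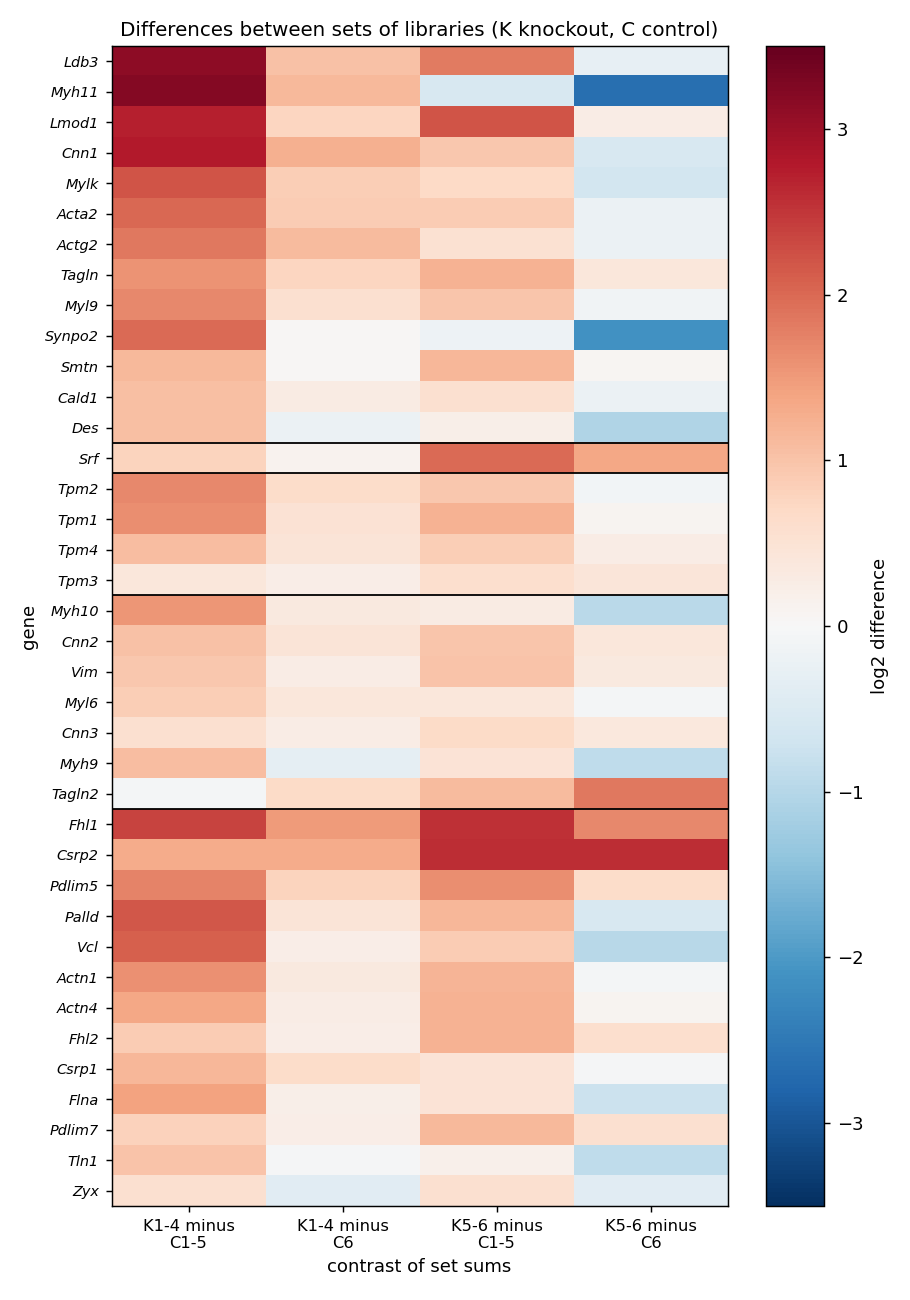
Log2 difference of each gene (y axis) for each pairing of 1 knockout set and 1 control set (x axis), shown as colour. Values are mostly above 0 except between knockout 5 and 6 and control 6, where they run from -2.65 for Myh11 to 2.58 for Csrp2.

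Srf, the transcription factor itself, was higher in the knockout. Its level was 99.5 to 249 CPM (median 105) in the knockout libraries and 58.6 to 94.8 CPM (median 61.4) in the controls, with no overlap. The fitted log2 difference was 1.18 (SE 0.27, adjusted p = 0.00374). The highest were knockout 5 and 6, at 243 CPM summed, against 104 CPM in knockout 1 to 4, which differed little from the 94.8 CPM of control 6. Myocd, a potent coactivator of SRF in smooth muscle, was at 0.128 to 1.14 CPM in the knockout and 0 to 0.35 CPM in the control, levels too low to test in the fit of all 12 libraries. Of 11 other cofactors and competitors of SRF, 4 were higher, 4 lower and 3 not past the test, beside 21.4% higher and 21.6% lower of all tested genes, with a median log2 difference of 0.20. The pair with the smallest adjusted p were both lower. Hdac4, a histone deacetylase that represses myocardin and MEF2 targets, was at 13.9 ± 3.14 CPM in the knockout and 27.4 ± 4.22 CPM in the control (SD, n = 6 each, edgeR adjusted p = 0.000557). Klf4, which represses smooth muscle genes, was at 84.6 ± 19.2 and 166 ± 28.4 CPM (adjusted p = 0.000704). Mkl1, the table's symbol for the gene of MRTF-A, was picked out after its values were seen. It was at 168 ± 21.5 CPM in the knockout and 79.2 ± 37.5 CPM in the control (edgeR adjusted p = 0.00223). For Mkl1, control 6, at 156 CPM, was again close to knockout 1 to 4, at 157 CPM. Mkl2, the symbol for the gene of MRTF-B, was at 39.7 ± 5.98 and 32.1 ± 8.43 CPM and did not pass (edgeR adjusted p = 0.131).

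The CArG box was looked up in RefSeq promoters of GRCm38.p6, each a window from 250 bases before to 50 bases after a gene's start. The box searched was CC, then 6 bases that are each A or T, then GG, a form that reads the same way on both strands. Of the 39 genes, 34 had an entry (44 windows). Actg2, Tagln, Myh11, Myocd and Csrp2 were not matched. An exact box was present in 8 of the 34 (23.5%), beside 1.81% of all 27025 genes with a promoter in the table and 1.64% of the tested genes with a promoter. With 1 mismatch allowed in the A/T stretch the shares were 29.4% and 11.3% of genes with a promoter. The 8 genes with a box are shown because they are where the SRF element can be read directly in the sequence. The box is in capitals, with 20 bases on each side, 5′ to 3′ on the strand of the gene.
Srf (chr17:46556195-46556264, minus strand, boxes starting 82 and 62 bases upstream of the start): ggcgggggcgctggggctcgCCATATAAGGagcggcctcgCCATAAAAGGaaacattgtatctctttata
Myl9 (chr2:156775283-156775332, plus strand, 161 bases upstream): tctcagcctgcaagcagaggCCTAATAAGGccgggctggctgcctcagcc
Ldb3 (chr14:34588687-34588736, minus strand, 35 bases upstream): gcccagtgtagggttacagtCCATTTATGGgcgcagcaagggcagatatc
Cnn2 (chr10:79988524-79988573, plus strand, 56 bases upstream): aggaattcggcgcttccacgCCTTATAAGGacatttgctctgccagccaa
Myl6 (chr10:128493030-128493079, minus strand, 50 bases upstream): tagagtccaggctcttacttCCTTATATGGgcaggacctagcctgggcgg
Vcl (chr14:20929151-20929200, plus strand, 227 bases upstream): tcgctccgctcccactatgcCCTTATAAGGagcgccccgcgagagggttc
Fhl1 (chrX:56779561-56779610, plus strand, 102 bases upstream): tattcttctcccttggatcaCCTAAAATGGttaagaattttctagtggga
Fhl2, first start (chr1:43196828-43196877, minus strand, 96 bases upstream): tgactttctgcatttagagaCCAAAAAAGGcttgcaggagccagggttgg
Fhl2, second start (chr1:43163963-43164012, minus strand, 31 bases upstream): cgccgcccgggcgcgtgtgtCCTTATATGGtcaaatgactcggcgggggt

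Srf and Fhl2 each held 2 boxes, Srf in 1 promoter and Fhl2 in 2 alternative promoters. Cnn2 and Vcl had the same 10 bases, as did Myl6 and the second Fhl2 start. All 8 genes were called higher in the knockout, with a median log2 difference of 1.2 (range 0.65 to 2.27), and 4 of them (Srf, Cnn2, Fhl1 and Fhl2) were higher in all 4 contrasts of sets. Of the 26 genes matched without an exact box, 20 were called higher, with a median of 0.89 (range 0.35 to 2.0), and 10 were higher in all 4 contrasts. Of all tested genes, 21.4% were called higher and 21.3% were higher in all 4 contrasts. Whether a box goes with the difference between genotypes was not tested. A box in a window is a match of letters, and its absence says only that these letters are not in that window.

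Smooth muscle contractile genes had the largest median difference of the roles with more than 1 tested gene. Of these 13 genes, 11 were higher and none was lower, beside 21.4% and 21.6% of all tested genes. Synpo2 and Des did not pass the test. The median log2 difference of the 13 was 1.38. Knockout 1 to 4 had a median difference of 1.99 from control 1 to 5 and of 0.76 from control 6. Knockout 5 and 6 had a median difference of 0.88 from control 1 to 5 and of -0.22 from control 6, with 10 of the 13 below 0 in the last. In bulk RNA, more cells of a contractile type and more RNA per cell cannot be told apart.

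Acta2, smooth muscle α-actin and the standard marker of myofibroblasts, was at 2788 to 6647 CPM (median 5973) in the knockout and 1459.7 to 3278 CPM (median 1549) in the control. The summed sets were at 6106 CPM in knockout 1 to 4, 3278 CPM in control 6, 2818 CPM in knockout 5 and 6, and 1527 CPM in control 1 to 5, so the genotypes overlapped through control 6. The fitted difference was 2.77-fold (log2 1.47, SE 0.29, adjusted p = 0.00151). Actg2, the enteric smooth muscle γ-actin, was at 449.7 to 1204 CPM (median 1104) in the knockout and 289 to 519 CPM (median 318) in the control, with a log2 difference of 1.38 (SE 0.28, adjusted p = 0.00167). Actin proteins are near-identical in sequence. Acta2 had non-whole estimated counts in 91.7% of libraries, so part of its reads was shared with other genes and their split is uncertain. Actg2 had whole counts in every library.

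Tagln, which encodes the actin-bundling protein transgelin (SM22α), was at 2548 to 3831 CPM (median 3184) in the knockout and 1071 to 1953 CPM (median 1128) in the control. The groups did not overlap, and the log2 difference was 1.30 (SE 0.18, adjusted p = 0.000134). Lmod1, a leiomodin that nucleates actin filaments in smooth muscle, likewise did not overlap, at 152 to 232 CPM (median 208) against 29.0 to 128 CPM (median 34.3). Its fitted difference was 4.01-fold (log2 2.0, SE 0.36, adjusted p = 0.000905). These were the only members of the contractile role in which all knockout libraries stood above all controls.

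Myh11, the smooth muscle myosin heavy chain, had the widest spread. It was at 17.8 to 287 CPM (median 238) in the knockout and 22.9 to 120.3 CPM (median 29.0) in the control. Knockout 1 to 4 stood at 266 CPM and control 6 at 120.3 CPM, whereas knockout 5 and 6, at 18.8 CPM, lay below control 1 to 5, at 28.2 CPM. The log2 difference was 2.04 (SE 0.70, adjusted p = 0.0325), and it lost the call without any 1 of knockout 1, 2 or 4 or control 1 to 5 (adjusted p up to 0.0685). Synpo2, an actin-binding Z-disc protein, followed the same order of sets at low levels: 15.2 CPM in knockout 1 to 4, 14.8 CPM in control 6, 3.46 CPM in control 1 to 5 and 3.0 CPM in knockout 5 and 6 (log2 1.01, SE 0.54, adjusted p = 0.144).

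Cnn1, the smooth muscle calponin that binds actin and slows myosin, was at 165 to 647 CPM (median 576) in the knockout and 83.8 to 249.6 CPM (median 87.0) in the control, with overlap through control 6 (log2 2.0, SE 0.42, adjusted p = 0.00231). Ldb3, a PDZ-LIM protein of the Z-disc, had the largest fitted difference of the 38, 4.84-fold (log2 2.27, SE 0.49, adjusted p = 0.00258). Its level was low, at 10.9 to 30.7 CPM in the knockout and 1.83 to 13.5 CPM in the control. Of both genes, control 6 exceeded knockout 5 and 6.

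The regulatory and light chain genes of smooth muscle myosin moved in the same direction. Mylk, the myosin light chain kinase that triggers contraction, was at 189.6 to 543 CPM (median 529.7) in the knockout and 111 to 294 CPM (median 118) in the control (log2 1.52, SE 0.35, adjusted p = 0.00404). Myl9, the regulatory light chain that this kinase phosphorylates, was at 493 to 874 CPM (median 778) against 232 to 541 CPM (median 258), with a log2 difference of 1.23 (SE 0.23, adjusted p = 0.00124). In both, 5 of 6 controls lay below all knockout libraries and control 6 did not.

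Cald1, or caldesmon, an actin-binding inhibitor of myosin ATPase, was at 1760.3 to 2592 CPM against 1202 to 2066 CPM, a 1.67-fold difference (adjusted p = 0.00423). Smtn, or smoothelin, was even across the knockout libraries, at 116 to 129 CPM, and stood at 51.8 to 118 CPM in the controls (log2 0.89, SE 0.19, adjusted p = 0.00223). Its overlap came from control 6, at 118 CPM, with the lowest knockout library, at 116 CPM. Des, the muscle intermediate filament protein desmin, was at 50.6 to 100.1 CPM against 42.6 to 108 CPM and did not pass the test (log2 0.54, SE 0.27, adjusted p = 0.12). Control 6, at 108 CPM, was the highest of all 12 libraries for Des. Without control 6, Des and Synpo2 both passed.

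**Figure D3:**
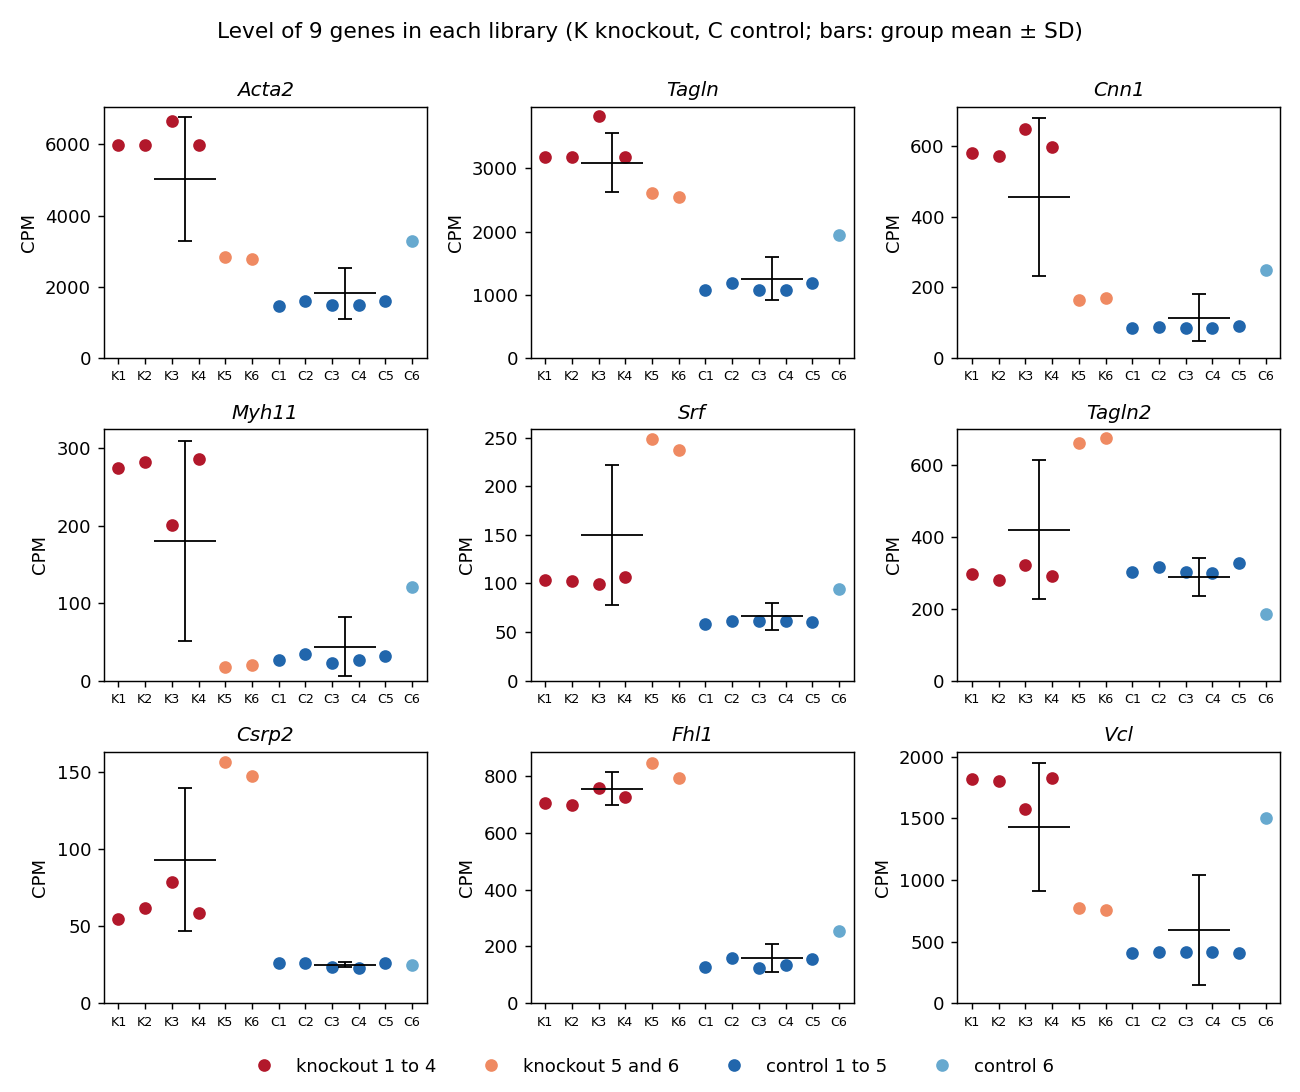
Level in CPM (y axis) of 9 of the genes in each knockout (K) and control (C) library (x axis), with the group mean ± SD as bars and the 4 sets of libraries in separate colours. Control 6 stands above the other controls for most genes, as for Acta2 at 3278 CPM against 1527 CPM, and knockout 5 and 6 stand apart from knockout 1 to 4, as for Myh11 at 18.8 CPM against 266 CPM.

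Tropomyosins are coiled-coil proteins that lie along the actin filament and set which myosins can bind. All were higher in the knockout (4 of 4, beside 21.4% of all tested genes). Tpm1 was at 1798 to 2609 CPM (median 2417) in the knockout and 755 to 1724 CPM (median 807) in the control, without overlap (log2 1.25, SE 0.22, adjusted p = 0.00065). Tpm2 was at 792 to 1503 CPM (median 1268) against 391 to 845 CPM (median 415), a similar log2 difference of 1.26 (SE 0.23, adjusted p = 0.00101), and control 6 overlapped knockout 5 and 6.

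Tpm4 was at 1322 to 1641 CPM against 721 to 1129.5 CPM, a 1.85-fold difference (adjusted p = 0.000212). Tpm3 had the smallest difference of the family, 1.35-fold, at 447 to 527 CPM against 345 to 391 CPM (log2 0.44, SE 0.08, adjusted p = 0.000942). Neither overlapped between the genotypes. Tropomyosin genes each make several splice forms, muscle and cytoskeletal, which gene-level counts do not separate.

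The balance between a muscle form and its widely expressed counterparts was followed as a log2 ratio of counts within each library, which does not depend on library scaling. Of 6 such ratios, 4 differed between the genotypes in a two-sided exact permutation test over libraries, with p-values adjusted over the 6. The smallest p this test can give is 0.00216. Tpm1 plus Tpm2 to Tpm3 plus Tpm4 was 0.77 ± 0.22 in the knockout and 0.25 ± 0.25 in the control (SD, n = 6 each, exact permutation p = 0.00649, adjusted 0.0195). Myl9 to Myl6 was -0.24 ± 0.14 and -0.86 ± 0.27 (exact permutation p = 0.00649, adjusted 0.0195). In the tropomyosin ratio control 6, at 0.76, lay above knockout 5 and 6, at 0.49 on average, and below the mean of knockout 1 to 4, at 0.92.

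The Tagln to Tagln2 ratio was 2.98 ± 0.80 in the knockout and 2.11 ± 0.63 in the control (exact permutation p = 0.0173, adjusted 0.026), and the Cnn1 to Cnn2 plus Cnn3 ratio was -1.84 ± 0.95 and -2.99 ± 0.44 (exact permutation p = 0.0173, adjusted 0.026). Both lost the call without any 1 of knockout 1 to 4 (adjusted p = 0.0942) or any 1 of control 1 to 5 (adjusted p = 0.123 and 0.0606). The transgelin set means were 3.495 in knockout 1 to 4, 1.954 in knockout 5 and 6, and 1.855 in control 1 to 5. Control 6 was at 3.404. The calponin set means were -1.229, -3.058 and -3.166 in the same order, and control 6 was at -2.097. In both ratios knockout 5 and 6 lay close to control 1 to 5 and below control 6, so the sets did not follow genotype. Acta2 plus Actg2 to the cytoplasmic actins Actb plus Actg1 was -0.97 ± 0.59 against -1.35 ± 0.08 and did not pass (exact permutation p = 0.147, adjusted 0.177). Its set means were -0.59 in knockout 1 to 4, -1.73 in knockout 5 and 6, -1.39 in control 1 to 5 and -1.20 in control 6, so knockout 5 and 6 had the lowest share of muscle actin of all sets.

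Myh11 to the non-muscle heavy chains Myh9 plus Myh10 was -5.02 ± 1.62 against -5.95 ± 0.39 and did not pass (exact permutation p = 0.190, adjusted 0.190). Here too knockout 5 and 6 stood lowest, at -7.11, beside -3.97 in knockout 1 to 4. Both of these ratios passed without knockout 5 (differences of 0.53 and 1.36) and without knockout 6 (0.54 and 1.34), each with an exact permutation adjusted p of 0.0498.

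**Figure D4:**
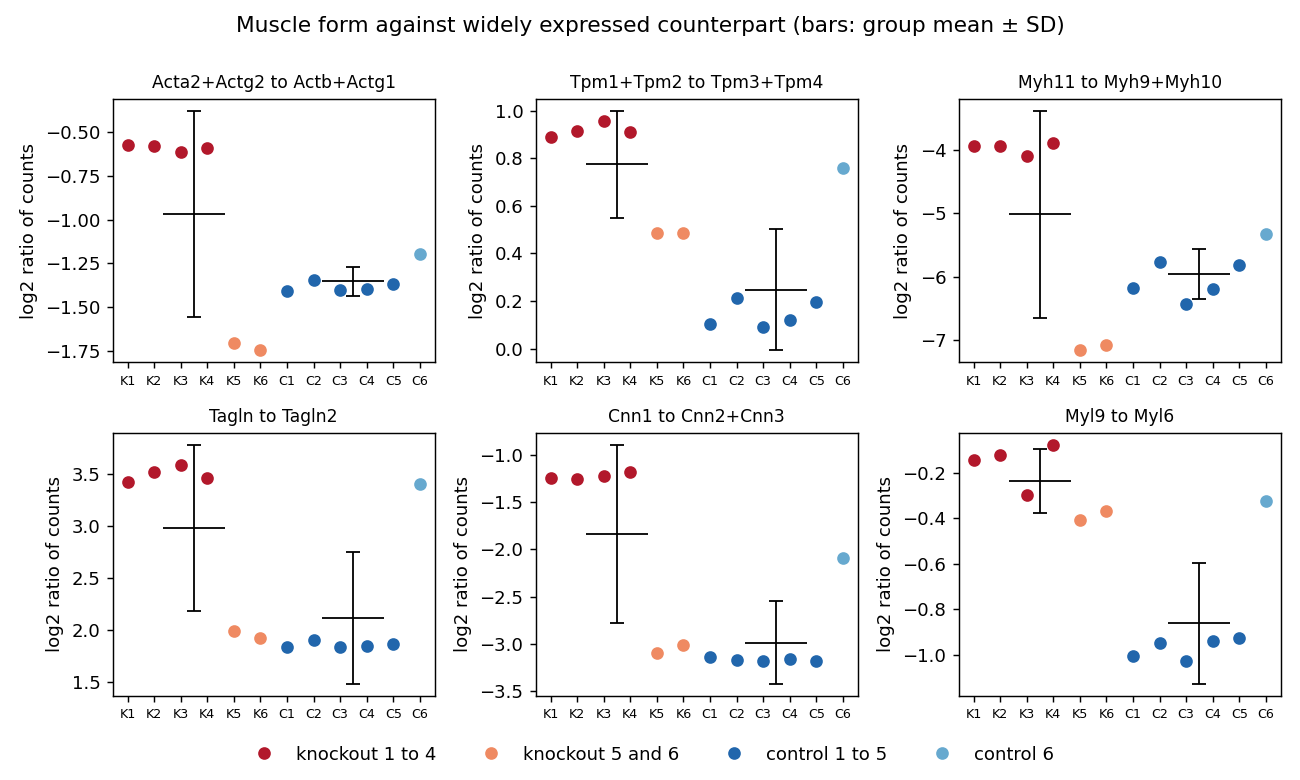
Log2 ratio of counts of a muscle form to its widely expressed counterparts (y axis) in each library (x axis), with the group mean ± SD as bars. For the 2 ratios that did not pass, of actins and of myosin heavy chains, knockout 5 and 6 lie below all controls.

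The widely expressed counterparts had smaller differences: 5 of 7 were higher and none was lower, beside 21.4% and 21.6% of all tested genes. Tagln2 and Myh9 did not pass. The median log2 difference of the 7 was 0.65. Cnn2, a calponin found in many cells, was at 852 to 989.8 CPM (median 873) against 416 to 653 CPM (median 444), with no overlap (log2 0.90, SE 0.12, adjusted p = 0.000111). Cnn3, the acidic calponin, was at 487 to 551 CPM against 329 to 414 CPM, with no overlap (log2 0.56, SE 0.08, adjusted p = 0.000263). Cnn2 carries the CArG box shown above.

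Vim, vimentin, the intermediate filament protein of mesenchymal cells, was at 3626 to 4043 CPM (median 3752) in the knockout and 1888 to 3095 CPM (median 1948) in the control. It did not overlap, and its difference was 1.78-fold (log2 0.83, SE 0.14, adjusted p = 0.000625). Myl6, the essential light chain shared by muscle and non-muscle myosin II, was at 637 to 1077 CPM against 472 to 678 CPM (log2 0.65, SE 0.14, adjusted p = 0.00326). Control 6 was the only control within the knockout range of Myl6.

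The non-muscle myosin II heavy chains, which drive contraction of stress fibres, overlapped between the genotypes. Myh9 was at 2333 to 3774 CPM against 1613 to 4429 CPM, and the highest value of all was that of control 6 (log2 0.55, SE 0.27, adjusted p = 0.112). Myh10 was at 217 to 570.3 CPM against 172 to 419 CPM (log2 0.94, SE 0.31, adjusted p = 0.0264), and it lost the call in some fits without 1 library, among them each fit without 1 of control 1 to 5 (adjusted p up to 0.0592). The counts of Myh9 were estimated with decimals in every library, as were those of Myh10, so part of their reads was shared with other genes.

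Tagln2, a transgelin of non-muscle cells, was the gene in which control 6 was the lowest library. It was at 295 CPM in knockout 1 to 4, 308 CPM in control 1 to 5, 184 CPM in control 6 and 667 CPM in knockout 5 and 6. Its log2 difference was 0.54 (SE 0.26, adjusted p = 0.105).

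Stress fibre and focal adhesion genes were higher in 11 of 13 cases and lower in none, beside 21.4% and 21.6% of all tested genes. Zyx and Tln1 were not past the test. The median log2 difference of the 13 was 1.05. In 6 of the 13, all knockout libraries lay above all controls, beside 10.6% of all tested genes: Actn4, Csrp2, Pdlim5, Pdlim7, Fhl1 and Fhl2. Knockout 1 to 4 had a median difference of 1.36 from control 1 to 5 and of 0.25 from control 6, and knockout 5 and 6 had median differences of 1.15 and -0.05 from those sets.

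Fhl1, a LIM-only protein of muscle, had the smallest adjusted p of the 38 genes. It was at 699 to 848 CPM (median 743) in the knockout and 125 to 254 CPM (median 145) in the control. The lowest knockout library was above the highest control, and the log2 difference was 2.25 (SE 0.17, adjusted p = 3.67e-06), which is 4.74-fold. All 4 contrasts of sets were large, from 1.5 between knockout 1 to 4 and control 6 to 2.55 between knockout 5 and 6 and control 1 to 5.

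Csrp2, a cysteine-rich LIM protein of smooth muscle, was the gene in which control 6 did not stand out. It was at 54.8 to 156 CPM (median 70.5) in the knockout and 22.9 to 26.4 CPM (median 25.4) in the control, and its log2 difference was 1.90 (SE 0.27, adjusted p = 0.000165). The highest were knockout 5 and 6, at 152 CPM, beside 62.3 CPM in knockout 1 to 4 and 24.9 CPM in each control set. Pdlim5, a PDZ-LIM protein that binds α-actinin, was at 486 to 566 CPM (median 536) against 158 to 318 CPM (median 165), with a log2 difference of 1.48 (SE 0.17, adjusted p = 4.88e-05).

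Fhl2, a LIM-only coregulator that also sits at adhesions, was at 216 to 291 CPM against 114 to 193 CPM, without overlap (log2 0.89, SE 0.14, adjusted p = 0.000322). Pdlim7 (enigma) was at 221 to 291 CPM against 118 to 193 CPM (log2 0.82, SE 0.13, adjusted p = 0.000337). Csrp1 was at 419 to 768 CPM against 290.2 to 434 CPM (log2 0.88, SE 0.17, adjusted p = 0.00133), and control 6, at 434 CPM, overlapped knockout 5 and 6, at 420.4 CPM summed.

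The α-actinins cross-link actin filaments. Actn4 was at 1208 to 1409 CPM (median 1321) against 519.7 to 1146 CPM (median 534), without overlap (log2 1.05, SE 0.20, adjusted p = 0.00105). Actn1 was at 1364 to 1880.1 CPM (median 1740.3) against 582 to 1446 CPM (median 597), with overlap through control 6 (log2 1.17, SE 0.24, adjusted p = 0.00182). Palld, or palladin, a scaffold that binds α-actinin, was at 424 to 895 CPM against 185 to 634 CPM (log2 1.44, SE 0.35, adjusted p = 0.00581).

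The large adhesion and cross-linking proteins had control 6 close to knockout 1 to 4. Vcl, or vinculin, which strengthens the link of talin to actin, was at 1772 CPM in knockout 1 to 4, 1499.6 CPM in control 6, 766 CPM in knockout 5 and 6 and 412 CPM in control 1 to 5 (log2 1.27, SE 0.39, adjusted p = 0.0192). Flna, or filamin A, was at 4442, 3865, 2316 and 1664 CPM in the same sets (log2 0.86, SE 0.28, adjusted p = 0.0239), and it lost the call without any 1 of control 1 to 5 (adjusted p up to 0.0554). Tln1, or talin 1, which activates integrins, was at 571 to 1081 CPM against 501 to 1070.2 CPM (log2 0.53, SE 0.24, adjusted p = 0.0897).

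Zyx, or zyxin, a tension-sensitive adhesion protein, was nearly constant over the 6 knockout libraries, at 926 to 977 CPM. The controls ran from 609 to 1242 CPM (median 649), and 5 of them were below and control 6 was above all knockout libraries (log2 0.35, SE 0.17, adjusted p = 0.106). Without control 6, Zyx, Tln1 and Myh9 passed the test, and 37 of the 38 genes were then higher, beside 25.4% of all tested genes.

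Other genes of the same machinery were counted from lists that do not contain the 39 genes. Of 15 tested genes for cytoplasmic actins and proteins that bind actin monomers or filament ends, 14 were higher and 0 lower, beside 21.4% and 21.6% of all tested genes, with a median log2 difference of 0.67. Actb, cytoplasmic β-actin and often a reference gene, was at 5541 ± 305 CPM in the knockout and 2568 ± 881 CPM in the control (SD, n = 6 each, edgeR adjusted p = 0.000578), and Actg1 was at 5372 ± 283 and 2889.7 ± 715 CPM (adjusted p = 0.000679). Tmsb4x, the thymosin that sequesters actin monomers, was at 1231 ± 158 against 588 ± 37.3 CPM (adjusted p = 1.77e-05), and Cfl2, a cofilin that severs filaments, at 224 ± 12.6 against 127 ± 5.0 CPM (adjusted p = 5.14e-06).

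Of 26 tested other focal adhesion and stress fibre genes, 19 were higher and 1 was lower, beside the same 21.4% and 21.6%, with a median log2 difference of 0.67. Enah, an actin elongation factor at adhesions, was at 240.5 ± 35.3 against 80.9 ± 18.3 CPM (edgeR adjusted p = 1.12e-05), and Nexn, the actin-binding protein nexilin, at 127 ± 11.2 against 41.4 ± 12.6 CPM (adjusted p = 1.87e-05).

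Of 15 tested other smooth muscle genes, such as channels and calcium-handling proteins, 5 were higher, 2 lower and 8 not past the test, counts not far from the 21.4% and 21.6% of all tested genes, with a median log2 difference of 0.41. Dmd, dystrophin, was at 61.1 ± 14.8 CPM in the knockout and 14.9 ± 9.28 CPM in the control (edgeR adjusted p = 0.000301). Kcnma1, a calcium-activated potassium channel of smooth muscle, was lower, at 1.81 ± 1.12 against 9.44 ± 2.93 CPM (adjusted p = 0.0008).

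Markers of other cell types moved with some of the sets. The summed level of 8 pericyte markers was 814 to 930.4 CPM in knockout 1 to 4, 896 CPM in control 6, 572 to 617 CPM in control 1 to 5 and 336 to 356 CPM in knockout 5 and 6. Of these 8, 6 were tested and 2 were higher in the knockout, beside 21.4% of all tested genes. Higd1b was at 0 in every library. Of 7 fibroblast markers, 0 were higher and 4 lower, beside 21.4% and 21.6% of all tested genes. Their sum was 4222 to 4302 CPM in knockout 5 and 6, against 18727 to 20326 CPM in knockout 1 to 4 and 20291 to 27085 CPM in the controls. Col1a1 and Col1a2 made up most of this sum in each set. For 5 of the 7 markers all knockout libraries lay below all controls, beside 12.5% of all tested genes. For Dcn, summed knockout 1 to 4 had 207 CPM, against 601 CPM for control 1 to 5. Between these sets Col3a1 had 1510 against 3298 CPM, Lum 7.44 against 22.6 and Pdgfra 119 against 183. Col1a1 (11121 against 8625) and Thy1 (534 against 316) went the other way. The 23 striated muscle markers summed to 138 to 147 CPM in knockout 1 to 4, 86.0 CPM in control 6, and 24.7 to 29.3 CPM in the other 7 libraries. Most of that was Acta1, whose protein, skeletal α-actin, is near-identical to that of Acta2, while Pax7 and Myh6 were at 0 in every library. The part of pericyte, fibroblast or striated muscle RNA in the differences above was not tested.

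The 7 epithelial markers summed to 17.4 to 22.6 CPM in knockout 1 to 4, 14.7 to 15.3 CPM in knockout 5 and 6, 7.28 to 8.98 CPM in control 1 to 5 and 19.6 CPM in control 6. Epcam, Cdh1 and Vil1 were at no more than 1 count in any library, and the 2 that were tested, Krt19 and Krt20, did not pass (edgeR adjusted p = 0.12 and 0.0600). The part of epithelial RNA in the differences above was not tested. The markers of leukocytes summed to at most 24.4 CPM, of endothelium to at most 10.5 CPM, of mesothelium to at most 7.47 CPM, of enteric glia to at most 5.22 CPM and of interstitial cells of Cajal to at most 23.6 CPM. Of the markers of myofibroblasts, Acta2 was at 1459.7 CPM or more and Vim at 1888 CPM or more in every library. Of the smooth muscle genes, Des stayed at or below 108 CPM, Smtn at or below 129 CPM and Synpo2 at or below 17.2 CPM. Myocd was close to 0. Others reached higher levels: Actg2 was at 289 to 1204 CPM over the libraries and Cnn1 at 83.8 to 647 CPM. Myh11 was at 17.8 to 287 CPM and Lmod1 at 29.0 to 232 CPM.

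The share of counts from Rn45s, a ribosomal RNA precursor, also moved with the sets: it was 1.63 to 2.1% in knockout 1 to 4, 7.01% in knockout 5, 8.25% in knockout 6, 0.871 to 1.19% in control 1 to 5 and 0.351% in control 6. Without the counts of Rn45s, 32 of the 38 genes were again higher, beside 21.3% of all tested genes. Without knockout 5 and 6, 35 of the 38 were higher, beside 24.5% of all tested genes, and without those libraries and control 6, 37 of 38 were, beside 34.9%. Against a fold of 1.5 in place of no change, 17 of the 38 were higher, beside 3.84% of all tested genes.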

How the data were processed

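Poly(A)-selected, strand-marked RNA libraries were made from the cells, per the labels' protocols. The authors made the deposited table of expected counts (estimated counts per gene symbol and library, not normalized) from alignments, with Bowtie2 2.1.0 and RSEM 1.2.15 per the submitters' processing notes. These notes list the human build hg38, while the symbols are those of mouse genes. Neither the annotation nor the strand setting is given in the sources used here. Columns were matched to libraries by their titles.

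Here, expected counts were rounded to whole numbers. Genes were kept with edgeR's filterByExpr (minimum count 10, minimum total 15), scaled by TMM and tested with edgeR 4.0.16 (quasi-likelihood, R 4.3.3) over all 12 libraries by genotype, with Benjamini-Hochberg adjustment over 12146 genes and a threshold of 0.05. CPM use TMM-scaled library sizes, and an SE is the log2 difference divided by the root of F. The steps were tested on simulated data with independent libraries, which does not check them for near-identical sets of libraries. Alternatives used limma 3.58.1, DESeq2 1.42.0, other scalings and filters, a fold of 1.5, a replicate block, and libraries left out. The 4 sets of libraries, and the fits that leave them out or sum them, were chosen after seeing the data.

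The 39 genes and the lists were chosen with earlier results of these data known. The result of 1 list is not reported here. All 39 genes are accounted for, and from each other pathway list reported the 2 tested genes with the smallest adjusted p were named, besides Actb, Actg1 and Tnfrsf1a. Mkl1, Mkl2 and the genes named from marker lists fall outside this rule and were chosen after their values were seen. RefSeq promoters were read from GRCm38.p6 and searched in Python 3.11.15.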

Additional observations from a re-analysis of the deposited data

Results flagged for a closer look

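In each group of 6 libraries, the highest and lowest library of each of the 38 genes was compared with its neighbour (76 groups in all). For 6 independent values, chance flags about 1 group in 20. That rate does not hold for near-identical libraries and genes that move together, so the flags of 1 library are not separate events. Control 6 stood apart from the other 5 controls in 37 of the 38 genes. It was the high library in 36 of them.

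Among the smooth muscle contractile genes, control 6 was at 3278 CPM for Acta2, 519 CPM for Actg2, 1953 CPM for Tagln, 249.6 CPM for Cnn1, 120.3 CPM for Myh11, 541 CPM for Myl9 and 128 CPM for Lmod1. It was at 14.8 CPM for Synpo2, 294 CPM for Mylk, 2066 CPM for Cald1, 118 CPM for Smtn, 108 CPM for Des and 13.5 CPM for Ldb3. Srf stood at 94.8 CPM in that library.

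Of the tropomyosins, control 6 was at 1724 CPM for Tpm1, 845 CPM for Tpm2, 391 CPM for Tpm3 and 1129.5 CPM for Tpm4. Of the widely expressed counterparts it was at 653 CPM for Cnn2, 414 CPM for Cnn3, 4429 CPM for Myh9, 419 CPM for Myh10, 678 CPM for Myl6 and 3095 CPM for Vim. Tagln2 was the exception in direction, with control 6 the low library at 184 CPM.

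Of the stress fibre and focal adhesion genes, control 6 was at 634 CPM for Palld, 1499.6 CPM for Vcl, 1446 CPM for Actn1, 1146 CPM for Actn4, 3865 CPM for Flna, 1242 CPM for Zyx and 1070.2 CPM for Tln1. It was at 434 CPM for Csrp1, 318 CPM for Pdlim5, 193 CPM for Pdlim7, 254 CPM for Fhl1 and 193 CPM for Fhl2. Csrp2 was the gene in which no control stood apart. In the knockout group, the library that stood apart was knockout 3 for Cnn2, at 989.8 CPM.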

How the results depend on the processing

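No result past its threshold changed direction under any alternative run. Of the genes not past the test, Tagln2 was at -0.06 with quality weights and without knockout 5, knockout 6 and control 6, and in the 4 summed sets Des was at -0.06 and Myh9 at -0.03 (log2). Over all genes, 5219 were called (2597 higher, 2622 lower). Sample quality weights called 9095 (4452 and 4643), a test against a fold of 1.5 called 1173 (467 and 706, with 17 of the 38 genes higher), and leaving out knockout 5, knockout 6 and control 6 called 8827 (4319 and 4508). The 4 summed sets in edgeR called 0 (0 higher, 0 lower, 0 of the 39 genes), with 1047 of 13132 genes at an unadjusted p under 0.05. Leaving out 1 library gave 29 to 37 of the 38 genes higher, beside 17.7 to 25.4% of all tested genes. The same-numbered libraries of the genotypes did not deviate together (correlations -0.38 to 0.21). No knockout library correlated best with the control of its own number. Since the 4 sets dominate such deviations, they cannot show whether the numbers pair the libraries. With the replicate number as a block, 29 of the 38 genes were higher, beside 15.4% of all tested genes. Myh11, Myh10 and Flna were lost. The ratio differences of 0.53 (tropomyosins), 0.87 (transgelins), 1.15 (calponins) and 0.62 (light chains) then had an adjusted p of 0.141 by exact sign flips. Leaving out 1 library gave differences of 0.75 to 1.13 for transgelins, 1.02 to 1.40 for calponins, 0.31 to 0.54 for actins and 0.71 to 1.36 for heavy chains. Without knockout 5 and 6 the actin and heavy chain differences were 0.76 and 1.98 (exact permutation adjusted p = 0.00476), and without control 6 as well 0.80 and 2.1 (0.00794). Of the other smooth muscle genes, 8 were higher without control 6, 9 without knockout 5 and 6, 11 without all of these libraries, 3 with the replicate block and 1 against a fold of 1.5, beside 5 in the fit of all libraries. In the same order, the shares of all tested genes called higher were 25.4%, 24.5%, 34.9%, 15.4% and 3.84%, beside 21.4%. Myocd, at 11 counts or fewer per library, was too low to be tested in all 12 libraries.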
